A study of Mus musculus with 4 samples.

Results

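The pyruvate dehydrogenase (PDH) complex, the kinases that switch it off and the phosphatases that switch it back on were examined in liver RNA from wild-type (WT) and *Usp21* knockout (KO) mice. The members were the genes listed in the TPM table under the symbols *Pdha1*, *Pdhb*, *Dlat*, *Pdhx*, *Pdk1*, *Pdk2*, *Pdk3*, *Pdk4*, *Pdp1* and *Pdp2*, and all 10 were found among its 35739 genes. *Usp21* encodes a deubiquitinating enzyme, and the study compared livers that lack it with those of littermates by RNA-seq on an Illumina MiSeq. The libraries analysed here were WT replicates 2 and 3 and *Usp21* KO replicates 1 and 3, with 1 numbered mouse behind each, so there were 2 libraries per genotype.

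The KO was constitutive: exons 3 and 4 of *Usp21* were removed in every tissue by Cre recombinase acting on loxP sites, in an allele built in 129/Sv embryonic stem cells. Both genotypes came from crosses of B6 mice with mice of mixed B6 × 129/Sv background, were 10 to 11 weeks old, ate a normal diet and were kept with 12 h of light per day. The WT mice carried intact *Usp21* alleles and neither genotype received a treatment. The hour of sacrifice, any fasting before it and the sex of the mice behind the libraries are not given in the sources used here.

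The PDH complex sits in the mitochondrial matrix and turns pyruvate, the end product of glycolysis, into acetyl-CoA, a step that animal cells cannot reverse. Pyruvate dehydrogenase kinases phosphorylate the E1 alpha subunit and stop the reaction, and pyruvate dehydrogenase phosphatases remove the phosphate. In liver this switch sets whether pyruvate is oxidised or used for fatty acid synthesis, or is kept for gluconeogenesis, and *Pdk4* is the kinase best known for its induction by fasting.

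*Usp21* itself was listed at 4.07 and 6.29 TPM (a length-corrected transcript level) in WT replicates 2 and 3 and at 1.64 and 2.93 TPM in KO replicates 1 and 3. Its KO levels lay below both WT levels. These are levels of the whole gene and not of the deleted exons alone. The read totals recovered from the accompanying CPM table (counts scaled to library size) were between 102898 and 148164 per library, and TPM keeps no record of depth. Of the genes averaging 25 TPM or more that the CPM table holds, it listed 71.2% at 0 in all libraries. These totals therefore need not describe the reads behind the TPM values. Hepatocyte markers dominated every library, with a summed level between 57649 and 82081 TPM for 9 of 10 listed markers and none of the 9 at 0. Summed levels of cholangiocyte markers (14.6 and 15.9 TPM in WT, 38.0 and 24.5 TPM in KO) and of lymphocyte markers (4.63 and 6.28 TPM in WT, 7.99 and 9.71 TPM in KO) were higher in both KO libraries. Of the 6 cholangiocyte markers, 2 (*Krt19* and *Spp1*) had KO levels above both WT levels. *Spp1* made up most of that sum, at 13.2 and 12.7 TPM in WT and at 33.4 and 20.7 TPM in KO. Of the 7 lymphocyte markers, 2 lay above and 1 (*Cd3e*) below, and without *Ighm* the other 6 summed to 3.24 and 3.37 TPM in WT and to a lower 2.67 and 1.82 TPM in KO. Their part in the results below was not tested. No member lies on chromosome 1, which carries *Usp21* (0 of 10).

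Across the members, the data showed 1 kinase transcript that was higher in both KO livers, *Pdk4* (a mean of 1.97 TPM against 0.440 TPM in WT), and 1 that was lower in both, *Pdk1* (9.68 TPM against 15.5 TPM). The log2 fold changes of the subunit genes were at most 0.34. None of these differences passed the adjusted threshold. Genes were tested when their mean over the 4 libraries was at least 1 TPM, which left 9581 genes, and 8 of the 10 members were among them. By limma on log2(TPM + 1) with Benjamini-Hochberg adjustment over all tested genes, 0 members had an adjusted p under 0.05, against 0.0835% of all tested genes. At an unadjusted p under 0.05 there were 2 of the 8 tested members (*Pdk1* and *Pdk4*), where 10.5% of all tested genes had such a p. Of these, *Pdk4* passed the filter only through the KO libraries, so it had to be higher there. When applied to reads recovered from CPM values, edgeR's quasi-likelihood test and DESeq2 also called 0 members, but only 2 members had any read there. The p-values measure the spread between 2 mice per genotype and lean on variances shared between genes. In whole liver, fewer cells of a type and less RNA per cell cannot be told apart.

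The KO and WT levels did not overlap for 4 of the 10 members, all 4 among the 8 that were tested. The groups of *Pdk3* and *Pdp1*, which were under the filter, overlapped. Of all tested genes, 45.3% had groups that did not overlap. The KO levels lay above both WT levels for *Pdha1*, *Pdk4* and *Pdp2*, a direction found in 34.4% of all tested genes. They lay below for *Pdk1*, a direction found in 10.9% of them. With the libraries scaled to an equal upper quartile, *Pdha1* overlapped and *Pdk2* no longer did, which left 2 members above and 2 below, against 24.5% and 18.6% of all tested genes (43.1% in both directions). The mean log2(TPM + 1) was lower in KO for *Pdk1* and *Pdk2* and higher for 8 members, *Pdk3* and *Pdp1* under the filter included. It was higher in KO for 66.7% of all tested genes. The median log2 fold change of the 10 members was 0.15, and that of all tested genes was 0.15 too. Upper quartile scaling brought the members' median to 0.072 and that of all tested genes to 0.036.

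**Figure D1:**
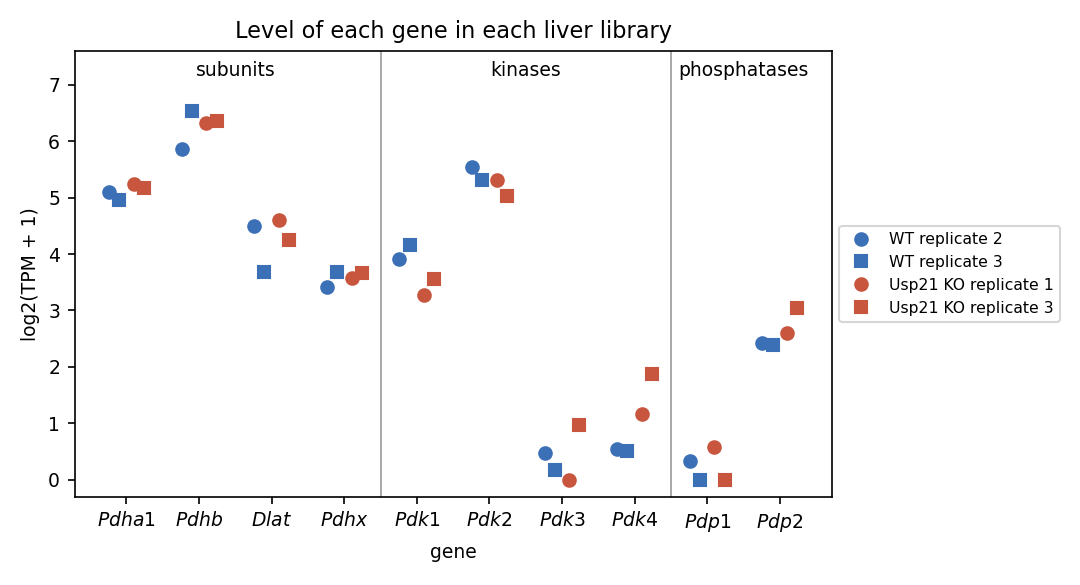
The vertical axis gives log2(TPM + 1) of each gene on the horizontal axis, with 1 point per liver library of WT (replicates 2 and 3) and *Usp21* KO (replicates 1 and 3). *Pdhb* sits highest at 56.9 to 91.2 TPM, and *Pdk4*, *Pdk3* and *Pdp1* sit lowest, with no library above 2.69 TPM.

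The levels of the members spanned a wide range in these livers. *Pdhb* had the highest mean level over the 4 libraries at 77.0 TPM, followed by *Pdk2* at 38.8 TPM, *Pdha1* at 33.7 TPM, *Dlat* at 18.7 TPM, *Pdk1* at 12.6 TPM, *Pdhx* between 9.71 and 11.8 TPM and *Pdp2* at 5.24 TPM. *Pdk4* followed with 0.423 to 2.69 TPM, and *Pdk3* at 0.370 TPM and *Pdp1* at 0.193 TPM closed the order. The ranges over the 4 libraries did not overlap between *Pdhb* and *Pdk2*, between *Pdha1* and *Dlat*, between *Pdhx* and *Pdp2*, or between *Pdp2* and *Pdk4*. The other neighbours in the order (*Pdk2* and *Pdha1*, *Dlat* and *Pdk1*, *Pdk1* and *Pdhx*, *Pdk4* and *Pdk3*, *Pdk3* and *Pdp1*) overlapped in range.

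The E1 enzyme, which uses thiamine pyrophosphate to decarboxylate pyruvate, is built from alpha and beta subunits. *Pdha1* (ENSMUSG00000031299, GRCm38, chromosome X, 160122209 to 160138413, reverse strand) encodes E1 alpha, the subunit that the kinases phosphorylate. It was at 33.1 and 30.0 TPM in WT and at 36.6 and 35.0 TPM in KO. Both KO levels lay above both WT levels, by a small margin. The log2 fold change was 0.18 (SE 0.17, 95% interval -0.25 to 0.60, adjusted p = 0.700 by limma), and it was 0.047 with overlapping groups under upper quartile scaling. Of the 31-base stretches in its transcripts, 14.0% also occur in a transcript of another gene above 0 TPM here, so part of its reads could be assigned either way. For the other members this share was at most 2.11%. Counted over other genes at any level, 0 included, it was 15.8% for *Pdha1* and 17.9% for *Pdhb*.

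*Pdhb* (ENSMUSG00000021748, chromosome 14, 8165996 to 8173025, reverse strand) encodes E1 beta. It was at 56.9 and 91.2 TPM in WT and at 79.1 and 80.8 TPM in KO. The KO libraries lay close together, inside the span of the WT libraries. The log2 fold change of 0.15 (SE 0.25, adjusted p = 0.841 by limma) had a 95% interval from -0.48 to 0.78, and it was -0.19 without WT replicate 2.

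*Dlat* (ENSMUSG00000000168, chromosome 9, 50634633 to 50659780, reverse strand) encodes E2, which passes the acetyl group from a lipoyl arm to coenzyme A. Its levels were 21.4 and 11.9 TPM in WT, against 23.4 and 17.9 TPM in KO. The groups overlapped because the WT libraries were far apart, and the direction turned when WT replicate 3 was left out (log2 fold change -0.060). With all libraries the log2 fold change was 0.34 (SE 0.32, 95% interval -0.45 to 1.13, adjusted p = 0.693 by limma). *Pdhx* (ENSMUSG00000010914, chromosome 2, 103021075 to 103073513, reverse strand) encodes the protein that anchors E3 to the core. It was at 9.71 and 11.8 TPM in WT and at 10.9 and 11.6 TPM in KO. These groups overlapped too, with a log2 fold change of 0.071 (SE 0.21, 95% interval -0.44 to 0.59, adjusted p = 0.908 by limma) that became -0.055 without WT replicate 2 and -0.051 under upper quartile scaling.

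Over the 4 subunit genes, the summed level was 121.1 and 144.9 TPM in WT, against 150.1 and 145.4 TPM in KO. Their median log2 fold change was 0.16, close to the 0.15 of all tested genes, and 3 of the 4 had overlapping groups. Ratios between genes of 1 library do not depend on how libraries are scaled. *Pdhb* per *Pdha1* was 1.72 and 3.04 in WT and 2.16 and 2.31 in KO, and *Dlat* per *Pdha1* was 0.648 and 0.395 in WT and 0.640 and 0.513 in KO. In both ratios the KO values lay inside the WT span.

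The kinases showed the largest contrasts among the members. *Pdk4* (ENSMUSG00000019577, chromosome 6, 5483351 to 5496309, reverse strand) was at 0.457 and 0.423 TPM in WT and at 1.25 and 2.69 TPM in KO. Both KO levels lay above both WT levels, and KO replicate 3 was the highest. The mean was 0.440 ± 0.0239 TPM in WT, against 1.97 ± 1.02 TPM in KO (SD, n = 2 each), a ratio of means of 4.47. On the log2(TPM + 1) scale, which understates the change of low genes, the log2 fold change was 1.00 (SE 0.33, 95% interval 0.17 to 1.83). Its unadjusted p was 0.0264 and its adjusted p was 0.464 by limma, with adjusted values from 0.296 to 0.823 over the alternatives tried.

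*Pdk4* was the 1 member at or past 2-fold, as were 3.68% of all tested genes (2.59% higher and 1.1% lower in KO), and 2.57% of the tested genes had a higher log2 fold change. It passed the filter on mean level only through the KO libraries, so it had to be higher there. The size depended on the pseudocount, with log2 fold changes of 1.85 at a pseudocount of 0.1 and 0.35 at 5. Without KO replicate 3 the log2 fold change was 0.64, and without KO replicate 1 it was 1.36. It was 0.98, just under 2-fold, without WT replicate 3, and 0.94 under upper quartile scaling. *Pdk4* had a low level in all of these livers, at 0.423 to 2.69 TPM, although 39.0% of the genes detected had a lower mean TPM.

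Muscle and adipose tissue are known for high *Pdk4* levels, and their markers were read in the same libraries. Of the 6 adipocyte markers, 4 (*Plin1*, *Cidea*, *Lep* and *Retn*) were listed at 0 in all 4 libraries. The summed level of the list was 4.61 and 9.47 TPM in WT, against 15.4 and 10.1 TPM in KO, above WT in both KO libraries and highest in KO replicate 1, which had the lower *Pdk4* level of the KO pair. That sum is *Fabp4* almost alone, since the other detected marker, *Adipoq*, was above 0 only in KO replicate 3 (0.224 TPM), and the groups of *Fabp4* overlapped under upper quartile scaling. Of the 6 skeletal muscle markers, 4 (*Ckm*, *Acta1*, *Myh4* and *Tnnt3*) were at 0 throughout, and the summed level was 0.437 and 1.63 TPM in WT, against 0.888 and 0 TPM in KO. The part of either tissue in the *Pdk4* level was not tested.

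*Pdk1* (ENSMUSG00000006494, chromosome 2, 71873224 to 71903858, forward strand), a kinase known for its induction by hypoxia, was at 14.1 and 16.9 TPM in WT and at 8.65 and 10.7 TPM in KO. Both KO levels lay below both WT levels. The mean was 15.5 ± 2.01 TPM in WT, against 9.68 ± 1.46 TPM in KO (SD, n = 2 each), a ratio of 0.624. The log2 fold change was -0.63 (SE 0.22, 95% interval -1.17 to -0.087, unadjusted p = 0.0300 and adjusted p = 0.464 by limma, adjusted values of 0.403 to 0.823 over the alternatives). It stayed between -0.77 and -0.49 when single libraries were left out, and 3.04% of the tested genes had a lower log2 fold change.

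*Pdk2* (ENSMUSG00000038967, chromosome 11, 95026258 to 95041354, reverse strand) was the kinase with the highest level in every library. It was at 45.7 and 38.7 TPM in WT and at 38.9 and 31.8 TPM in KO. The groups met at WT replicate 3 and KO replicate 1, and the log2 fold change was -0.25 (SE 0.20, 95% interval -0.74 to 0.23, adjusted p = 0.639 by limma). With upper quartile scaling it was -0.38 and the groups no longer overlapped. *Pdk3* (ENSMUSG00000035232, chromosome X, 93764607 to 93832201, reverse strand) was at 0.393 and 0.126 TPM in WT and at 0 and 0.960 TPM in KO. It was under the filter on low values, its groups overlapped, and the sign of its difference turned with the pseudocount (log2 fold change 0.16 at 1 and -0.037 at 0.1) and without KO replicate 3 (-0.33).

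**Figure D2:**
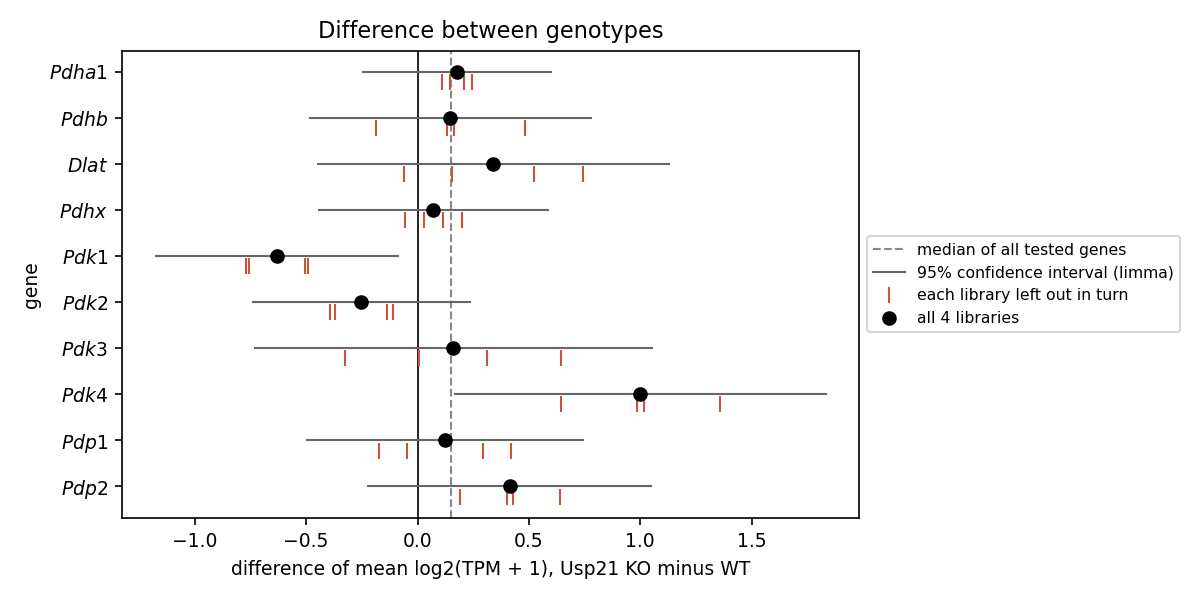
The horizontal axis gives the difference of mean log2(TPM + 1), *Usp21* KO minus WT, for each gene on the vertical axis, with limma's 95% interval as the line around each point. The interval excludes 0 for *Pdk4* (0.17 to 1.83) and *Pdk1* (-1.17 to -0.087) and includes it for the other members, while neither adjusted p (0.464 for both) is under 0.05.

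The makeup of the kinase transcripts was described by the share of each kinase in their summed TPM. *Pdk4* made up 0.754% and 0.753% in WT and 2.56% and 5.83% in KO, a difference of the means of 3.44 percentage points. Both KO shares lay above the WT shares. This is a description, since *Pdk4* passed the filter only through the KO libraries and a two-sided exact permutation test of 2 against 2 libraries cannot give a p below 0.333. *Pdk2* made up 75.4% and 68.9% in WT and 79.7% and 68.9% in KO, with overlapping groups. *Pdk1* made up 23.2% and 30.2% in WT and 17.7% and 23.2% in KO, where WT replicate 2 and KO replicate 3 were nearly level. *Pdk2* was the major kinase transcript in each of the 4 libraries.

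*Pdk1* lay above *Pdk4* in every library, by a wider margin in WT than in KO. There were 30.8 and 40.0 *Pdk1* transcripts per *Pdk4* transcript in WT and 6.92 and 3.98 in KO. For *Pdk2* the corresponding ratios were 100 and 91.4 in WT and 31.1 and 11.8 in KO. In both ratios the KO libraries lay below the WT libraries, with KO replicate 3 the lowest. For *Pdk1* this followed from the levels above, since *Pdk1* was lower and *Pdk4* higher in both KO libraries. The WT ratios divide by *Pdk4* levels of only 0.457 and 0.423 TPM, and *Pdk4* passed the filter only through the KO libraries. No test was run on these ratios. The summed kinase level, set mostly by *Pdk2* and *Pdk1*, was 60.7 and 56.2 TPM in WT, against 48.8 and 46.1 TPM in KO.

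The catalytic subunits of the phosphatases are encoded by *Pdp1* and *Pdp2*. *Pdp2* (ENSMUSG00000048371, chromosome 8, 104591451 to 104599026, forward strand) was at 4.36 and 4.26 TPM in WT and at 5.06 and 7.26 TPM in KO. Both KO levels lay above both WT levels, and the log2 fold change was 0.41 (SE 0.26, 95% interval -0.22 to 1.05, adjusted p = 0.566 by limma). Without KO replicate 3 it was 0.19, and without KO replicate 1 it was 0.64. *Pdp1* (ENSMUSG00000049225, chromosome 4, 11958184 to 11966452, reverse strand) was at 0.267 and 0 TPM in WT and at 0.504 and 0 TPM in KO. It was under the filter and was listed at 0 in 1 library of each genotype, so *Pdp2* carried at least 90.9% of the summed phosphatase level in every library.

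Kinase and phosphatase transcripts were also set against each other. The summed kinase level per summed phosphatase level was 13.1 and 13.2 in WT and 8.76 and 6.35 in KO. Per *Pdha1* transcript there were 1.83 and 1.87 kinase transcripts in WT and 1.33 and 1.32 in KO. The WT pair and the KO pair did not overlap in either ratio, and both ratios were lower in KO. Phosphatase transcripts per *Pdha1* transcript were 0.140 and 0.142 in WT and 0.152 and 0.208 in KO. These are ratios of transcript levels, and neither the proteins nor the phosphorylation of E1 alpha was measured. They were formed from members that were already known to differ, so no test was run on them.

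**Figure D3:**
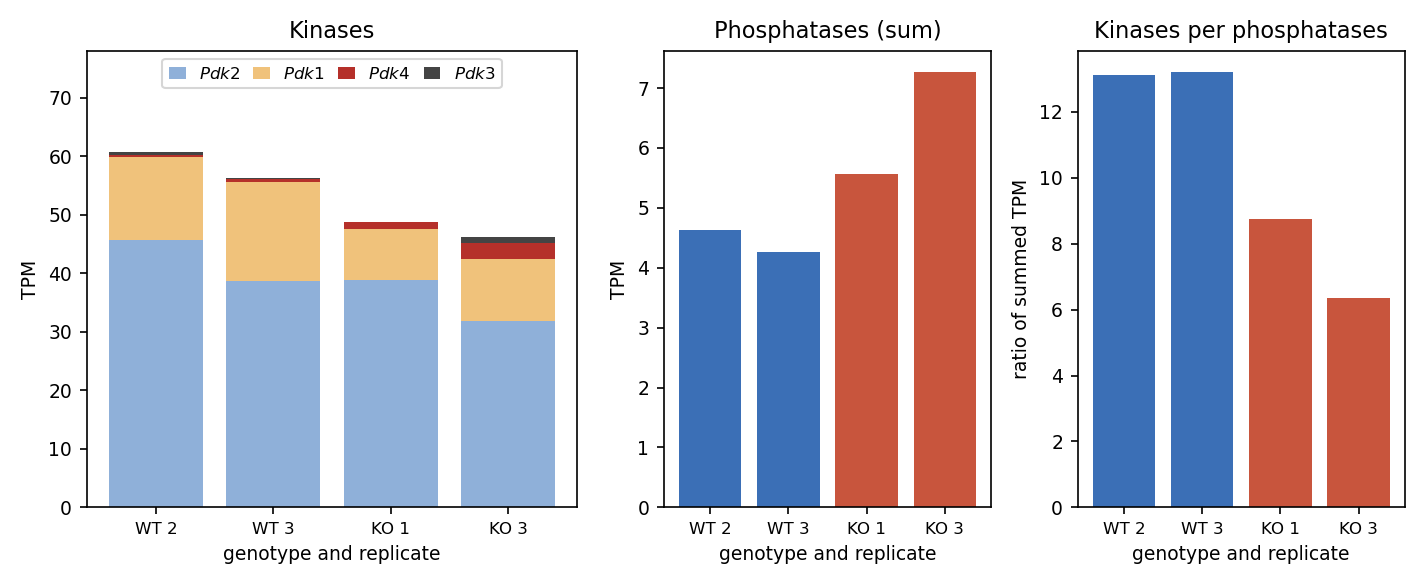
The panels give the stacked TPM of the kinases, the summed phosphatase TPM and the summed kinase TPM per summed phosphatase TPM. Each panel has 1 bar per liver library (WT replicates 2 and 3, *Usp21* KO replicates 1 and 3). *Pdk2* is the largest part of the kinase bar in every library. The summed phosphatase level is 4.63 and 4.26 TPM in WT against 5.57 and 7.26 TPM in KO. The kinase to phosphatase ratio is 13.1 and 13.2 in WT against 8.76 and 6.35 in KO.

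The CPM table, counted by HTSeq on aligned reads, held almost no signal for these genes. It listed only *Pdha1* and *Dlat* above 0, each with 2 reads (13.4 CPM) in KO replicate 1 and 0 in the other libraries. The other 8 members were at 0 in all 4 libraries. A count of 0 allows up to 3 reads by counting error (20.0 to 27.7 CPM), but these zeros set no limit on the members' levels. Of the 2261 genes averaging 25 TPM or more that the CPM table holds, it listed 1610 (71.2%) at 0 in all 4 libraries, *Pdhb* and *Pdk2* among them. The cause was not tested. The CPM values therefore could not be used to compare the genotypes for these genes, and the *Pdk4* difference rests on the TPM values alone.

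The partners of the complex were read from a list of 10 genes for shared subunits, cofactors and lipoylation, of which 8 were tested. None of the 8 had an adjusted p under 0.05 by limma, 3 had higher and 5 lower means in KO (66.7% of all tested genes were higher), and 1 had an unadjusted p under 0.05 (10.5% of all tested genes). Their median log2 fold change was -0.028. *Dld*, which encodes E3, the subunit that reoxidises the lipoyl arm and is shared with the sister complexes, was at 45.2 and 46.4 TPM in WT and at 58.0 and 51.3 TPM in KO (log2 fold change 0.25, adjusted p = 0.598 by limma). *Pdpr*, the regulatory subunit of the *Pdp1* phosphatase, was under the filter, at 0.758 and 0.648 TPM in WT and at 0.558 and 1.42 TPM in KO.

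The largest differences in that list went in opposite directions. *Lipt2*, which encodes an octanoyl transferase of lipoate synthesis, was at 3.45 and 5.44 TPM in WT and at 2.73 and 1.77 TPM in KO, with a log2 fold change of -0.74 (SE 0.31, adjusted p = 0.479 by limma). *Slc19a2*, a thiamine carrier, was at 20.8 and 15.8 TPM in WT and at 30.0 and 26.6 TPM in KO, with a log2 fold change of 0.61 (SE 0.21, adjusted p = 0.464 by limma). In both genes the groups did not overlap, and the log2 fold change of *Lipt2* was -0.47 without WT replicate 3. *Slc19a2* lies 7.02 Mb from *Usp21* on chromosome 1, and the part of that closeness in its difference was not tested.

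Genes that supply pyruvate or use it otherwise numbered 11, all tested. None passed the adjusted threshold by limma, 4 were higher and 7 lower in KO (66.7% of all tested genes were higher), and 2 of the lower ones had an unadjusted p under 0.05 (10.5% of all tested genes). The median of their log2 fold changes was -0.096. Those were *Pklr*, the liver pyruvate kinase, and *Gpt*, which interconverts alanine and pyruvate. *Pklr* was at 33.8 and 48.2 TPM in WT and at 19.2 and 29.5 TPM in KO (log2 fold change -0.74, SE 0.29, adjusted p = 0.472). *Gpt* was at 193.9 and 232.0 TPM in WT and at 156.7 and 117.8 TPM in KO (log2 fold change -0.64, SE 0.21, adjusted p = 0.464). Both KO levels lay below both WT levels for each of them, and the log2 fold change of *Pklr* was -0.44 when KO replicate 1 was left out and -0.49 when WT replicate 3 was.

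The sister complexes, which oxidise 2-oxoglutarate and the branched-chain 2-oxo acids, have the same architecture, and the branched-chain complex has a kinase and a phosphatase of its own. Among their 8 genes, all tested, the mean in KO was higher for 4 and lower for 4, and the median was 0.078 on the log2 scale. Of all tested genes 66.7% were higher. None of the 8 passed the adjusted threshold by limma, and 1 had an unadjusted p under 0.05 (10.5% of all tested genes). The branched-chain kinase *Bckdk* was at 4.75 and 2.39 TPM in WT and at 7.86 and 4.41 TPM in KO, with overlapping groups and a log2 fold change of 0.65 (adjusted p = 0.551). Leaving out WT replicate 3 gave 0.27, and leaving out KO replicate 1 gave 0.29. The branched-chain phosphatase *Ppm1k* was at 11.2 and 10.4 TPM in WT and at 17.5 and 16.6 TPM in KO. Its groups were apart, with a log2 fold change of 0.61 (SE 0.19, adjusted p = 0.464).

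Known transcriptional regulators of the *Pdk* genes numbered 11, with 10 tested. None passed the adjusted threshold by limma and 2 had an unadjusted p under 0.05 (10.5% of all tested genes). Of the 10, 8 were higher and 2 lower in KO, where 66.7% of all tested genes were higher. The KO levels lay above both WT levels in 60% of the 10, where 34.4% of all tested genes did so. The median log2 fold change was 0.39. *Ppara*, the nuclear receptor that activates *Pdk4* in fasting, was at 11.6 and 12.8 TPM in WT and at 13.2 and 13.9 TPM in KO. Its log2 fold change of 0.15 (adjusted p = 0.784) was close to the median of all tested genes, and its groups overlapped under upper quartile scaling.

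*Ppargc1a*, which encodes the coactivator PGC-1 alpha, was at 0.681 and 0.482 TPM in WT and at 2.43 and 1.19 TPM in KO, with a log2 fold change of 0.80 (SE 0.33, adjusted p = 0.477 by limma). Like *Pdk4* it passed the filter only through the KO libraries, and its log2 fold change was 0.47 without KO replicate 1. *Foxo1*, an insulin-restrained factor of gluconeogenesis, was at 3.55 and 4.95 TPM in WT and at 6.47 and 7.74 TPM in KO, with a log2 fold change of 0.63 (SE 0.25, adjusted p = 0.473). For both, the KO libraries lay above the WT libraries. The KO library with the higher *Ppargc1a* level was replicate 1, whereas *Pdk4* and *Foxo1* were higher in replicate 3.

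Other genes of the hepatic fasting response were read from a list of 10, with 9 tested. All 9 had a higher mean in KO, where 66.7% of all tested genes had, and 5 of them (55.6%) had KO levels above both WT levels, where 34.4% of all tested genes had. None passed the adjusted threshold by limma, 4 had an unadjusted p under 0.05 (10.5% of all tested genes), and the median log2 fold change was 0.79. *G6pc*, the glucose-6-phosphatase of the last step of gluconeogenesis, was at 22.4 and 31.6 TPM in WT and at 56.4 and 172.8 TPM in KO (log2 fold change 1.85, SE 0.52, adjusted p = 0.464). *Igfbp1*, a secreted binding protein of insulin-like growth factors that insulin represses, was at 6.28 and 18.4 TPM in WT and at 21.5 and 42.3 TPM in KO (log2 fold change 1.39, SE 0.54, adjusted p = 0.472). As with *Pdk4*, KO replicate 3 had the highest level of both genes, and leaving it out gave log2 fold changes of 1.05 for *G6pc* and 0.92 for *Igfbp1*. The *Igfbp1* value depended more on the WT libraries, with 0.69 without WT replicate 2 and 2.10 without WT replicate 3.

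**Figure D4:**
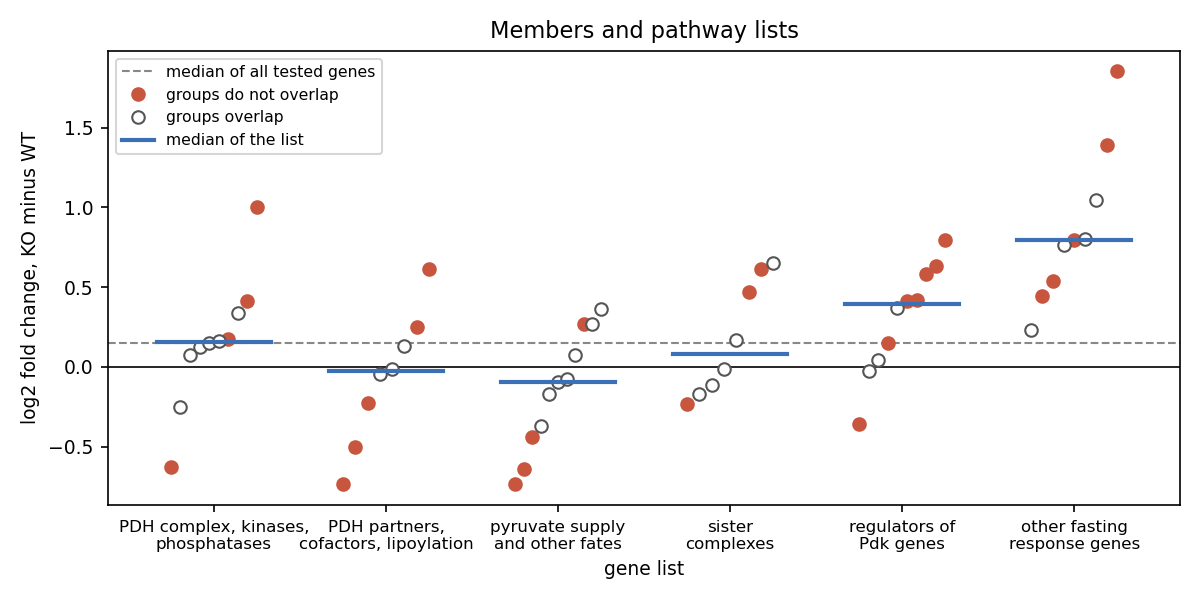
The vertical axis gives the log2 fold change, *Usp21* KO minus WT, of each gene, grouped on the horizontal axis into the PDH complex with its kinases and phosphatases and the pathway lists, with a bar at each median. The medians are 0.15 for the PDH genes, -0.028 for partners and cofactors, -0.096 for pyruvate supply, 0.078 for the sister complexes, 0.39 for regulators and 0.79 for the fasting response, against 0.15 for all tested genes.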

How the data were processed

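The authors estimated transcript abundance with Salmon and deposited TPM per Ensembl gene, the unit of all main values. The authors also counted reads aligned to mm10 with HTSeq and deposited TMM-normalized CPM, treated here as a count-based signal. Partek, edgeR and deepTools are named too, and versions are not given in the sources used here. Of the 4 deposited files, 2 were read, the 2 named as logarithms were not used, and 0 other per-sample columns were found.

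Genes averaging 1 TPM or more were tested on log2(TPM + 1) with limma 3.58.1 in R 4.3.3 (trended eBayes, two-sided, Benjamini-Hochberg adjustment over 9581 genes, 3.62 prior degrees of freedom). Members and list genes below that level were fitted with no filter. Libraries were assigned by their labels. The members and lists were chosen with earlier results of these data known, so no list was tested as a set. Named genes were all members, *Usp21*, *Dld*, *Pdpr*, *Ppara*, *Ppargc1a*, *Foxo1*, list genes past the adjusted threshold and the 2 tested genes with the largest absolute log2 fold change per list. *G6pc* was matched by identifier. Low CPM values are whole multiples of 1 read (100% within 0.02 reads), and edgeR 4.0.16 and DESeq2 1.42.0 were run on those reads. The alternatives were other pseudocounts (0.1 and 5), filters (none, and a mean of 5 TPM), upper quartile scaling, unmoderated variances, the CPM values and each library left out. Coordinates and shared 31-base stretches came from GENCODE M21 (GRCm38). The limma fit was tested on simulated log values with known changes.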

Additional observations from a re-analysis of the deposited data

How the results depend on the processing

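Of 217 alternative values, 173 were counted as unchanged. Part of these could not move. Another filter or unmoderated variances leave a member's log2 fold change as it is. Another pseudocount leaves the overlap of its groups as it is. Medians and counts had a limit on how far they could move. The log2 fold change of a single member and the difference in the *Pdk4* share had none. Each needed only to keep its direction, and the fold change also to have no adjusted p under 0.05. *Pdk4* therefore counted as unchanged at 0.35 (pseudocount 5) and 1.85 (pseudocount 0.1), and *Pdha1* at 3.10 (edgeR). No alternative gave a member an adjusted p under 0.05, and *Pdk4*, *Pdk1*, *Pdk2*, *Pdha1* and *Pdp2* kept their direction in each one that gave them a value. All of these but *Pdk2* had groups that did not overlap. For them a left-out library or another pseudocount, filter or moderation could not have turned the direction. The log2 fold change reversed for *Pdk3* at a pseudocount of 0.1 (-0.037) and for *Pdhx* under upper quartile scaling (-0.051). Leaving out single libraries spread it from -0.19 to 0.48 for *Pdhb*, -0.060 to 0.74 for *Dlat*, -0.055 to 0.20 for *Pdhx*, -0.33 to 0.65 for *Pdk3* and -0.17 to 0.42 for *Pdp1*. The count of members at 2-fold or more was 1 and became 0 at a pseudocount of 5 and under upper quartile scaling, and 0 to 1 without single libraries (0 without WT replicate 3 or KO replicate 3). The 4 members with non-overlapping groups became 6 to 7 with fewer libraries, counted over all 10 members, tested or not. The share of all tested genes was then 70.3% to 76.8%. The members' median ranged from 0.059 to 0.27 without single libraries. In the CPM values, edgeR and DESeq2, only *Pdha1* and *Dlat* had a value, from 2 reads in 1 library, so 2 members were past 2-fold, 0 had groups apart, and the median was 1.92, 3.10 and 2.12. The median for regulators was 0.27 at a pseudocount of 5 and 0.27 under upper quartile scaling, for partners 0.031 without a filter and -0.15 under that scaling, and for pyruvate supply -0.23 under that scaling. In the CPM values the medians were 1.81 for partners, -1.56 for pyruvate supply, 0.37 for sister complexes, 0.81 for regulators and -0.33 for the fasting response. Without single libraries they ran from -0.12 to -0.028, -0.28 to 0.059, -0.19 to 0.48, 0.18 to 0.46 and 0.53 to 1.00 in the same order. Where no construction shows it, the cause was not tested. The *Pdk4* share of the kinase TPM had no value in the CPM table, where all 4 kinases were at 0, and its difference ranged from 1.81 to 5.08 percentage points without single libraries. No paired analysis was possible because no pair or litter is labelled among the libraries. TPM keeps no record of depth, so its limit on each member is unknown.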
